A study of Drosophila melanogaster with 3 samples.

Results

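The genes that encode the insulator proteins of Drosophila melanogaster were examined as places where the zinc finger protein CG2712 was found. They were a list of 9 named genes out of 13968 protein-coding genes in the annotation, namely Cp190, Chro, CTCF, su(Hw), BEAF-32, mod(mdg4), Ibf1, Ibf2 and Dref, each matched by its symbol in Ensembl release 115. The data came from chromatin immunoprecipitation with sequencing (ChIP-seq), in which an antibody against green fluorescent protein (GFP) recovered DNA attached to CG2712 that carried GFP at its C terminus. All chromatin came from 1 stable transgenic fly line, as whole embryos of both sexes collected from 0 to 16 hours of age, and no second genotype, stage or treatment was examined here. The 3 biological replicates formed 1 group, so every value below is a comparison between replicates, between genes or between a gene and the whole genome. The labels do not say whether the replicates came from separate collections of embryos, and the spread between them covers only these samples. Because whole embryos of a broad age range were pooled, a peak that is strong in few cells and a peak that is weak in many cannot be told apart, and peak lists hold no expression values against which the tissue could be checked.

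Insulators are DNA elements that limit contact between enhancers and promoters and mark the borders of chromosomal domains. In flies they are bound by proteins that read DNA, such as CTCF, Su(Hw), BEAF-32, Dref, Ibf1 and Ibf2, which in turn recruit proteins that hold distant elements together, such as Cp190, Chromator and Mod(mdg4). Many of these proteins sit close to the promoters of housekeeping genes. Whether a factor found at the promoters of the genes that encode them regulates those genes was not tested.

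The DNA at the summits, the points of highest signal within peaks, is shown for the members whose peaks the results turn on. Each is read from the RefSeq genome (Release 6 plus ISO1 MT, build dm6) on the plus strand, with the region given after the gene. Stretches inside annotated untranslated regions were held to 30 bases, and the others span up to 101 bases around the summit. In Chro (chr3L:22878887-22878916), Dref (chr2L:9967230-9967312) and mod(mdg4) (chr3R:21377415-21377515) the capitals mark CGATA or its reverse complement, the short core read by BEAF-32, and in mod(mdg4) also the full element TATCGATA read by Dref. In su(Hw) (chr3R:14308877-14308977) they mark TGCATA in reverse complement, a core of the site read by Su(Hw). In Cp190 (chr3R:15275318-15275418), CTCF (chr3L:7356638-7356667) and the space between Ibf2 and Ibf1 (chr3R:9258534-9258634) they mark the longest stretch without G or C.
Chro: cctgtCGATAgctttaaactaactgcagtc
Cp190: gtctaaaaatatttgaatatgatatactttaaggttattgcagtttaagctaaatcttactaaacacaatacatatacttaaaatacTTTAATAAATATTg
Dref: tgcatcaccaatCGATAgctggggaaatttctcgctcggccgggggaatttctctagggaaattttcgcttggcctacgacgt
CTCF: tgttaaatctacAATTTAATTTgcgtccac
su(Hw): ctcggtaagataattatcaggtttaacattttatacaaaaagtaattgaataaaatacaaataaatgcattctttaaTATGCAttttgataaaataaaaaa
mod(mdg4): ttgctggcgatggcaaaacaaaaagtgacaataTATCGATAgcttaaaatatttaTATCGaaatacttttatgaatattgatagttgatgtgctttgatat
Ibf2 and Ibf1: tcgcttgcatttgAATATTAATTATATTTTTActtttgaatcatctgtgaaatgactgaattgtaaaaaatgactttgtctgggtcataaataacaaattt

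The peaks were read from 5 deposited lists. One list, filtered by the irreproducible discovery rate (IDR), which scores the repeat of a peak across replicates by rank, held 9789 peaks and was identical to as many of the strongest peaks of the list called on all replicates together (the pooled list). The pooled list and the list of each replicate held 30000 peaks. A peak's signal is the authors' own value, and rank 1 is the strongest peak of a list. The IDR signals ran from 206.2 to 40613, with a median of 411. Signals were compared only within a list, and ranks were compared between replicates. In the pooled list 74.5% of peaks had 1 fixed width of 424 bp, and nearly all of those had their summit at the middle of the interval, so that the summit there is the centre of a window more than a measured point. The same width was found at 28.2% of IDR peaks, and at 10 of the 28 IDR summits described here. The depth of each library is unknown.

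A CG2712 summit lay at the promoter of 7 of the 9 insulator protein genes, counted as an IDR summit within 500 bp of an annotated transcript start. The 7 were Chro, Cp190, Dref, BEAF-32, CTCF, su(Hw) and mod(mdg4), and the 2 without one were Ibf1 and Ibf2. Over all protein-coding genes, 4973 (35.6%) had such a summit, against 77.8% of the 9. In the pooled list all 9 genes had a promoter summit, where the share over all protein-coding genes was 49.2%. The whole lists of replicates 1, 2 and 3 also placed at least 1 summit at every one of the 9, with 49.2%, 50.7% and 51.8% of all protein-coding genes. The list of genes is short and was made with results of these data known, so these counts describe the 9 genes and no test was made.

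The count of 7 rested on the choices of window and list in a few genes. With a window of 250 bp it was 6 (su(Hw) was lost), where 30.1% of all protein-coding genes had a summit, and with 1000 bp it was 7 (39.5%). Among the strongest 5000 IDR peaks it was 6 (21.1%), without mod(mdg4), and with a summit counted for the nearest start only it was 6 (27.1%), without su(Hw). From the outermost start of each gene it was 7 (33.3%), and with any base of the peak in the window it was 7 (37.2%). Among as many of the strongest peaks of single replicates as the IDR list holds, it was 9 in replicate 1 (35.4%), 7 in replicate 2 (34.4%) and 9 in replicate 3 (36.9%), with Ibf1 and Ibf2 the genes that came and went. IDR peaks were also kept only where the summit lay in the 9789 strongest peaks of both of 2 replicates. With replicate 1, 2 or 3 left out of this filter the count was 7 each time. The shares of all protein-coding genes were 28.8%, 27.9% and 27.0%. The IDR list still came from all 3 replicates, so the filter could not raise the count above 7. In each of these settings the share of the 9 genes was above that of all genes.

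The peaks differed widely in strength between the genes. By the median of their 3 replicate ranks the order was Chro, Cp190, Dref, BEAF-32, CTCF, su(Hw), mod(mdg4), and then Ibf1 and Ibf2, which share 1 peak. The replicate ranks of Chro (18 to 30) and Cp190 (107 to 146) did not overlap with each other or with those of any other member. Dref (1190 to 2178) overlapped with BEAF-32 (1849 to 3374), BEAF-32 with CTCF (2735 to 4685), and CTCF with su(Hw) (3481 to 5479), so the ranges of these neighbours did not separate. Within single replicates the order of Dref and BEAF-32 was reversed in replicate 1, and that of BEAF-32 and CTCF in replicate 3. The peak of CTCF was stronger than that of su(Hw) in each of the 3. The ranks of su(Hw) and mod(mdg4) (6658 to 9209) did not overlap, and those of mod(mdg4) and the Ibf pair (6755 to 16652) did. In replicate 1 this order was also reversed, with the Ibf pair at rank 6755 and mod(mdg4) at rank 7767. Ranks of different genes come from the same 3 lists and are matched by replicate, and the order is given without a test.

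**Figure D1:**
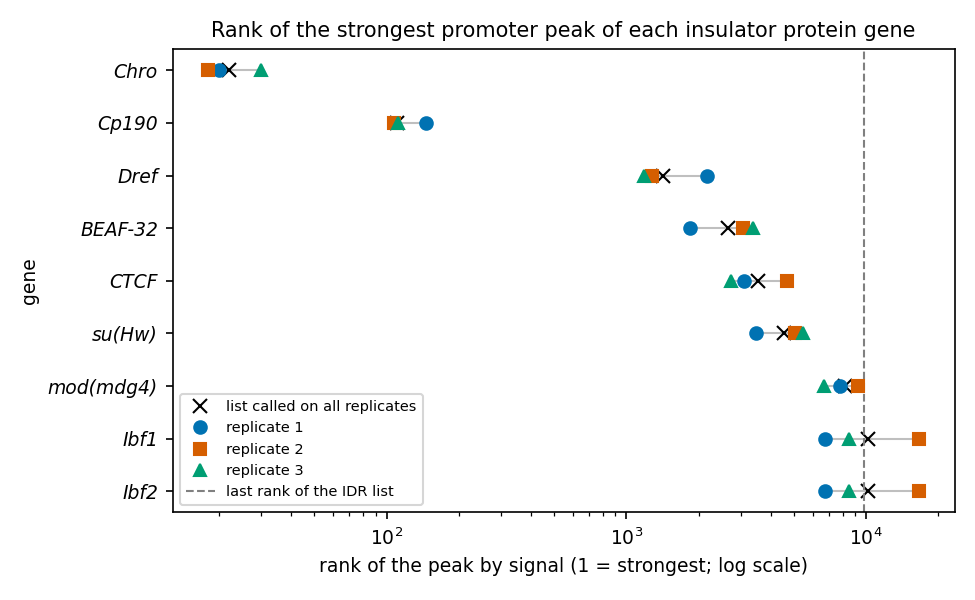
Rank of the strongest promoter peak of each gene on a logarithmic axis, in replicates 1, 2 and 3 (coloured symbols) and in the list called on all replicates (cross), with a grey line over the replicate range. The dashed line is the last rank of the IDR list, 9789. Chro and Cp190 stand apart on the left, and the Ibf1 and Ibf2 peak is the one with its cross past the dashed line.

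Set among the 4973 protein-coding genes with an IDR promoter summit, whose strongest promoter peaks had a median signal of 474.2, the members were spread from near the top to near the bottom. Only 26 genes had a stronger promoter peak than Chro and 90 a stronger one than Cp190. The number was 1002 for Dref, 1720 for BEAF-32, 2180 for CTCF, 2683 for su(Hw) and 4422 for mod(mdg4). The peaks of su(Hw) and mod(mdg4) were thus below the median signal of such genes, and those of the other 5 were above it.

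**Figure D2:**
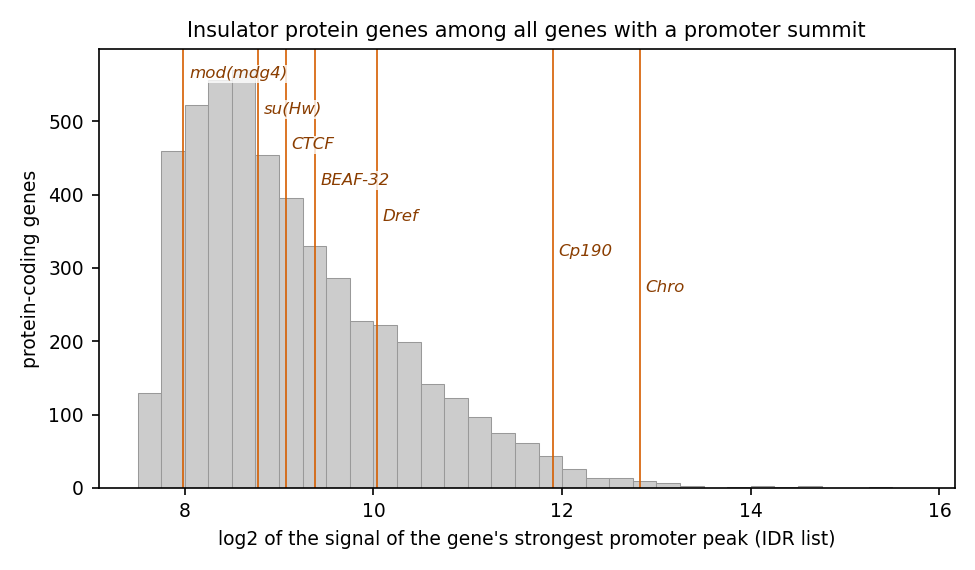
Histogram of log2 signal of the strongest IDR promoter peak for the 4973 protein-coding genes that had one, with orange lines at the 7 insulator protein genes among them. Cp190 and Chro lie in the right tail, and mod(mdg4) lies near the left end.

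Among the genes for proteins that bridge insulators, Chro carried the strongest peak. Chro (FBgn0044324) encodes Chromator, a chromodomain protein of the interbands of polytene chromosomes that also takes part in mitosis, and lies on 3L from 22873702 to 22878984 on the minus strand. Its IDR peak had a signal of 7264 and rank 22. The signals were 2100, 3120 and 2050 in replicates 1, 2 and 3, with ranks of 20, 18 and 30, so the peak was among the strongest of every list. The summit was 82 bp downstream of a Chro start and 187 bp from the start of Ssl1, which encodes a subunit of the transcription factor TFIIH. The starts of Chro and Ssl1 are head to head, 105 bp apart, and the summit lay on the Chro side of both. A second promoter summit was present in the pooled list alone, 52 bp from an internal Chro start, with a signal of 108.9 and rank 15811. Replicates 1 and 2 listed it at ranks 12745 and 12017, and replicate 3 had no peak within 250 bp of it.

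Cp190 (FBgn0000283; 3R, 15270432 to 15275241, minus strand) had the next strongest peak. Its protein has a BTB domain and zinc fingers and is recruited by most of the insulator proteins that bind DNA. The IDR signal was 3829, at rank 111. The replicate signals were 900, 1710 and 1240 and the ranks 146, 107 and 112, a narrow range in which replicate 1 was the lowest in order. The summit lay 127 bp upstream of the Cp190 start and 154 bp from that of CG4338, between head-to-head starts 281 bp apart. This was the one promoter summit of Cp190 in each of the 5 lists.

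mod(mdg4), whose product is a BTB protein that joins Su(Hw) and Cp190 at the gypsy insulator, had the weakest of the 7 peaks when each gene is taken by its strongest IDR promoter peak. The gene (FBgn0002781; 3R, 21350846 to 21377401, minus strand) has 22 annotated transcripts that all begin at 1 start. The IDR signal at this start was 253.2, at rank 8157, with the summit 64 bp upstream. The replicate signals were 68.1, 99.5 and 115 at ranks 7767, 9209 and 6658, all within the range of the IDR list but towards its end. No other gene had a start within 500 bp.

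The members that bind DNA through zinc fingers of the C2H2 type, CTCF and su(Hw), had peaks near the middle of the list. CTCF (FBgn0035769; 3L, 7353578 to 7356713, minus strand) encodes the fly counterpart of the vertebrate insulator protein. Its IDR signal was 536.9 at rank 3543, and the replicates gave 156, 185 and 220 at ranks 3091, 4685 and 2735. The summit was 60 bp downstream of the single CTCF start and no other gene had a start within 500 bp. A weaker summit 139 bp upstream was in the pooled list only (signal 146.6, rank 12720), and replicates 2 and 3 listed one there at ranks 13749 and 17400, while replicate 1 had a single peak at the promoter.

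su(Hw) (FBgn0003567; 3R, 14304455 to 14308589, minus strand) encodes the zinc finger protein that binds the gypsy insulator. Its IDR signal was 438.7 at rank 4530, and the replicates gave 143, 174 and 134 at ranks 3481, 5065 and 5479. The summit lay 338 bp upstream of the su(Hw) start and 162 bp from that of Polr2I, a subunit gene of RNA polymerase II, in the 500 bp between these head-to-head starts. This peak had the fixed width of 424 bp, so the listed summit is the centre of a window. Its replicate peaks (376, 420 and 424 bp) also had the fixed width of most peaks in their lists. By the listed position it was nearer to the neighbour, and su(Hw) is counted as having a promoter summit through a window that the neighbour shares. Of the members' IDR summits inside the 500 bp limit this was the farthest from its start, and those just outside it were 946 bp from BEAF-32, at the start of Spred, and 994 bp into mod(mdg4).

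The remaining members, Dref, BEAF-32 and the Ibf genes, encode proteins that bind DNA. DREF, which has a BED-type zinc finger, activates genes of replication and growth through the element named after it. Dref (FBgn0015664; 2L, 9964147 to 9967229, minus strand) had an IDR signal of 1051 at rank 1415. The replicate signals were 202, 494 and 382 at ranks 2178, 1275 and 1190, so that replicate 1 ranked the peak lowest. The summit lay 38 bp upstream of Dref and 46 bp from the start of the ribosomal protein gene RpL13, between head-to-head starts 84 bp apart, and the distances do not assign it to one of them.

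BEAF-32 (FBgn0015602; 2R, 14770469 to 14772630, plus strand) encodes a boundary element protein with a BED-type finger. It had 2 IDR promoter summits, at separate starts of the gene. The stronger had a signal of 664.6 at rank 2663 and lay 78 bp upstream of the first start, between it and the start of the antisense RNA gene asRNA:CR42254. The replicates gave 227, 259 and 190 at ranks 1849, 3052 and 3374. The second, 50 bp upstream of an internal start and 44 bp from a start of the same antisense RNA gene, had a signal of 251.5 at rank 8203. Replicate 1 listed 1 peak at this start, at rank 7268, and the other replicates listed a pair, at ranks 6169 and 13330 in replicate 2 and at ranks 11882 and 25448 in replicate 3. The replicate summits nearest to the IDR summit were 15, 94 and 45 bp from it, farther than at the first start in each replicate. This second peak had the fixed width of its list, as did these 3 replicate peaks, so the listed summit is the centre of a window.

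Ibf1 and Ibf2 encode proteins that bind Cp190 and support one another's binding to insulators. The genes are neighbours on 3R with head-to-head starts 463 bp apart (Ibf2, FBgn0037669, 9257727 to 9258501, minus strand, and Ibf1, FBgn0037670, 9258964 to 9260400, plus strand). No IDR summit lay between them. The strongest pooled summit there had a signal of 195.4 at rank 10219, below the lowest IDR signal of 206.2, and was 83 bp from Ibf2 and 380 bp from Ibf1. The replicates listed peaks with signals of 78.5, 49.7 and 91.7 at ranks 6755, 16652 and 8465. Replicates 1 and 3 thus placed a peak within the range that the IDR list spans and replicate 2 did not. A weaker pooled summit (signal 140.2, rank 13164) lay 116 bp from Ibf1. Replicate 3 listed 1 summit between these pooled summits, 202 bp from the stronger and 62 bp from the weaker, so the same replicate peak stands for both. These pooled peaks and the replicate peaks matched to them had the fixed widths of their lists, so the positions are window centres.

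Taking the strongest promoter summit of each gene, the replicates placed it close to the listed position except at the Ibf pair. The largest distance of a replicate summit from the listed one was 18 bp at Chro, 16 bp at Cp190, 15 bp at BEAF-32, 22 bp at CTCF and 17 bp at mod(mdg4), and 42 bp at Dref and 50 bp at su(Hw). The su(Hw) positions belong to peaks of fixed width, as do all those at the Ibf pair, so these are distances between window centres. The fixed width was also found in replicate 1 at Dref, which gave its 42 bp. At CTCF and mod(mdg4) it was found in replicates 1 and 2. Over all 4516 IDR promoter summits, 90.9% had a summit within 250 bp in each of the 3 replicates, with a median largest distance of 42 bp and a 90th percentile of 109 bp. The distances at these 7 summits were thus within that percentile, as was the 94 bp at the second IDR summit of BEAF-32, and the 202 bp at the Ibf pair was above it.

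Of the 7 members with an IDR promoter summit, 5 (71.4%) had the start of another gene within 500 bp of the strongest summit, against 57.2% of the 4973 genes, so sharing a promoter region was about as frequent as among bound genes in general. Each of these neighbours was on the opposite strand, head to head with the member. The share of such neighbours among the 4973 genes was not examined, so this is not shown to be particular to the members. The member's own start was the nearest to the summit in 6 of 7 cases, against 72.8% of the 4973 genes, and the exception was su(Hw). The median distance from the summit to the gene's own start was 78 bp in the members and 129 bp over the 4973 genes.

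Beyond the promoters, an IDR summit lay inside the gene body of 4 of the 9 genes (Chro, CTCF, BEAF-32 and mod(mdg4)), against 17.5% of all protein-coding genes. Gene length was not matched in this comparison. These 4 genes were 5283, 3136, 2162 and 26556 bp long, and the others ran from 775 bp (Ibf2) to 4810 bp (Cp190). The median protein-coding gene has 2164 bp. The same 4 genes had a summit in the body in the pooled list (30.7% of all protein-coding genes). Among the strongest 5000 IDR peaks they were 3, without BEAF-32 (11.3%). With the filter by 2 replicates the count was 3 when replicate 1 (14.6%) or 2 (13.7%) was left out, and BEAF-32 was again lost. It was 4 when replicate 3 was left out (14.2%). This filter of the IDR list could not raise the count. In Chro, CTCF and BEAF-32 the summit in the body was a promoter summit just described. All 9 genes had an IDR summit in the body or within 5 kb of it, but so did 64.4% of all protein-coding genes. The 28 IDR summits in these regions comprised 8 at the promoters of the members, 13 at promoters of other genes only, 6 in introns and 1 in a 3′ UTR. Each had a summit within 250 bp in all 3 replicates. The share was 90.9% over the 4516 IDR promoter summits, and it was not examined over IDR summits away from promoters. Some replicate peaks were matched to more than 1 summit, and some had little support. The −log10 q was lowest, at 0.292, in replicate 1 at a summit in an intron of red, near su(Hw). It was 0.677 in replicate 3 at the second BEAF-32 summit. In replicate 1 it was also 0.685 in an intron of mod(mdg4) and 0.72 in an intron of CG31321, near su(Hw).

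**Figure D3:**
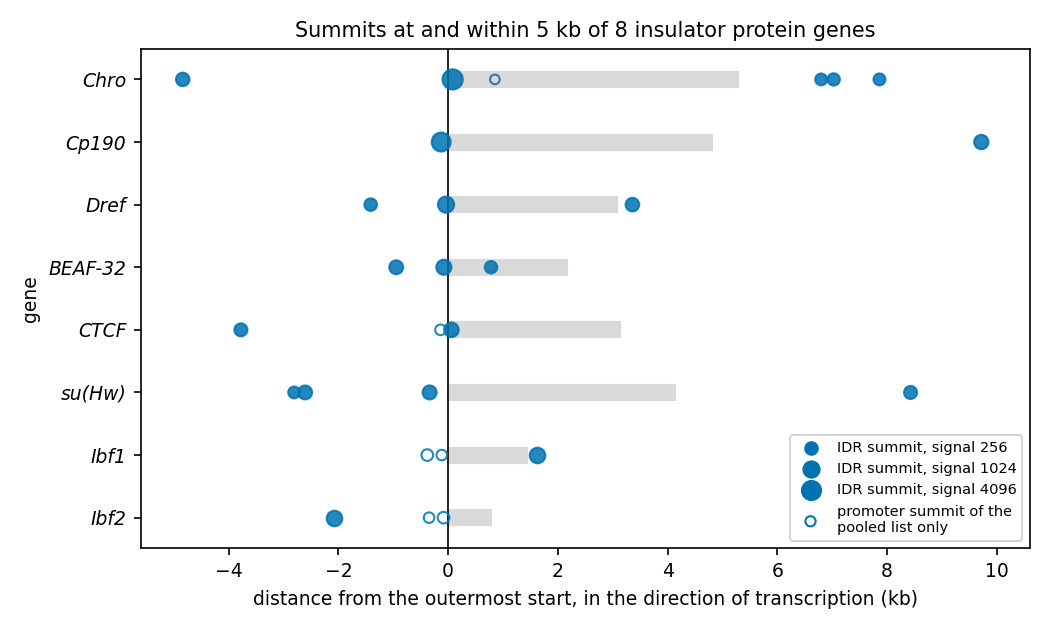
IDR summits (filled circles) and promoter summits of the pooled list alone (open circles) at 8 of the 9 genes, by distance in kb from the outermost start in the direction of transcription. Grey bars are the gene bodies and the area of a circle grows with log2 signal; the largest circles are at the starts of Chro and Cp190, and the bodies of Cp190, su(Hw), Dref, Ibf1 and Ibf2 hold no IDR summit.

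mod(mdg4) differed from the other members in the number of summits, with 4 in its body and 8 within 5 kb. It is also much the longest, at 26556 bp, where the median protein-coding gene has 2164 bp and 5.51% of genes are longer. Its transcripts are known to be completed by trans-splicing, in which a common 5′ part is joined to 3′ parts transcribed separately, and the annotation lists such parts as 23 genes named pre-mod(mdg4), 14 on the strand of mod(mdg4) and 9 on the other. All 23 had an IDR summit within 500 bp of a start, and because their starts coincide, only 3 summits account for them.

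The strongest summit in mod(mdg4) was not at its start but 11985 bp downstream, with a signal of 2357 at rank 332. The replicates gave 710, 860 and 780 at ranks 240, 486 and 314. These ranks did not overlap with those at the mod(mdg4) start. The summit was 72 bp from a start of pre-mod(mdg4)-E and within 500 bp of the starts of 10 of the pre-mod(mdg4) genes, which lie on both strands. A summit 3740 bp downstream (signal 416.7, ranks 4656, 6722 and 3801) was 86 bp from the shared start of pre-mod(mdg4)-N, -O and -AA. The third, 17409 bp downstream, was weak (signal 213.8, ranks 9171, 10118 and 13831) and lay 184 bp from pre-mod(mdg4)-T within a group of 10 such genes. The fourth summit in the body was intronic, 994 bp from the mod(mdg4) start (signal 292.7), and its ranks of 16853, 8398 and 4648 ranged widely, with replicate 1 the weakest.

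Just outside mod(mdg4) lay the strongest flanking summit of the set, 1368 bp upstream of the mod(mdg4) start. It had a signal of 2728 at rank 245 and replicate ranks of 365, 231 and 216. It was 208 bp from the start of tin, which encodes the Tinman homeodomain factor of the heart. Beyond the other end of the gene, a summit 7 bp from the start of aus had a signal of 357 and one in an intron had a signal of 428.

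**Figure D4:**
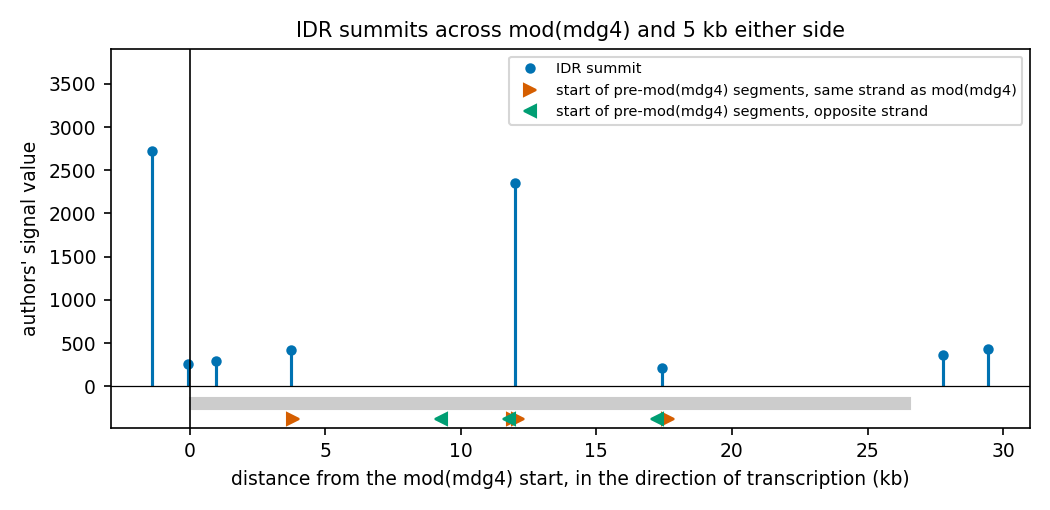
Signal of the 8 IDR summits within mod(mdg4) and 5 kb to either side, by distance in kb from its start in the direction of transcription. The grey bar is the gene body and triangles are starts of the pre-mod(mdg4) genes, pointing in their direction of transcription; the summit at 2357 stands where starts of both strands meet, and the summit at 2728 lies upstream of the gene, next to tin.

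The flanking summits of the other members were weaker than those of Chro and Cp190 at their own promoters, and most lay at starts of neighbouring genes. The strongest, with a signal of 807.1 at rank 2056 and replicate ranks of 1601, 2440 and 1912, lay 190 bp past the end of Ibf1 and 48 bp from the start of ATP6AP2, an accessory gene of the vacuolar proton pump. It is the IDR summit that puts both Ibf genes in the count within 5 kb. Cp190 had a flanking summit 67 bp from ATPsynO, a subunit gene of the mitochondrial ATP synthase (signal 490.3, ranks 2977, 4726 and 5092), 4908 bp beyond the end of Cp190 and so near the 5 kb limit.

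BEAF-32 had a flanking summit 100 bp from Spred, whose product inhibits Ras signalling (signal 417.7, ranks 6288, 15794 and 4243). CTCF had one 71 bp from Sec63, a gene of protein entry into the endoplasmic reticulum, and 227 bp from pst (signal 306.7, ranks 4036, 11658 and 5084). Replicate 2 was the weakest at both. Dref had a summit 79 bp from CG5850 (signal 375.5, ranks 5639, 4542 and 8591) and one in the 3′ UTR of RpL13 (signal 264.2, ranks 10233, 13984 and 7855).

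Near Chro, 3 weak summits lay at the starts of the small GTPase gene Arf1 and of CG11109 (signals 239.1, 213.5 and 208.2), and 2 of these fell to the same peak in replicate 1. A further one was in an intron of slif, an amino acid transporter gene (signal 359.3, ranks 6456, 6033 and 5283). Near su(Hw), 2 summits were in an intron of CG31321 (signals 422.9 and 210.6, with the same peak nearest in replicate 2) and 1 in an intron of red (signal 306.9). The summit in red had ranks of 22196, 4333 and 7289, so replicate 1 held a far weaker peak there than the others.

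The DNA at the members' promoter summits was mostly rich in A and T, as it was at promoter summits in general. Over the 4516 IDR promoter summits the median share of A and T within 50 bp of the summit was 66.3%, against 56.4% in windows of the same 101 bases 300 bp to either side and 56.4% at 19275 starts of protein-coding genes. At the 8 IDR promoter summits of the members it ran from 49.5% to 81.2% with a median of 69.8%. The summit was richer in A and T than its flanks in 6 of the 8, where 71.9% of all IDR promoter summits were.

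Among the 8, the largest contrasts with the flanks were at Cp190 (80.2% against 49.5%), su(Hw) (81.2% against 52.0%) and the first BEAF-32 start (74.3% against 48.5%). The su(Hw) value was taken at the centre of a peak of fixed width. The exceptions were Dref (49.5% against 58.9%) and Chro (67.3% against 71.8%). The strongest and the third strongest promoter peaks of the set were thus the ones whose summits were less rich in A and T than their surroundings.

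**Figure D5:**
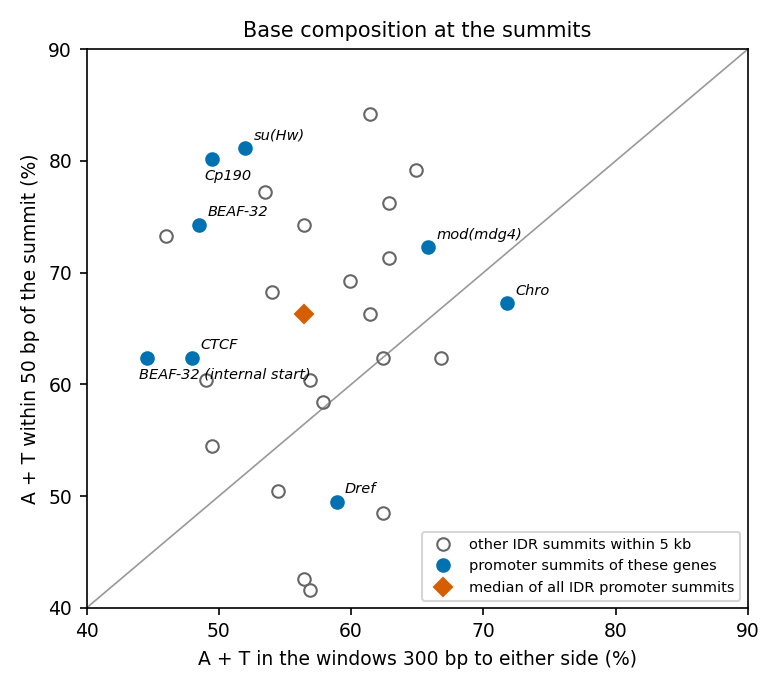
Share of A and T within 50 bp of each IDR summit against its share in the windows 300 bp to either side, in percent, for the 8 promoter summits of the members (filled), the other 20 IDR summits within 5 kb (open) and the median of all IDR promoter summits (diamond). Points above the line are richer in A and T than their flanks; of the filled points, Cp190, su(Hw) and the first BEAF-32 start lie highest above it and Chro and Dref lie below it, as do several open points.

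Exact matches to 7 short sequences were looked for on both strands within 50 bp of each summit, among them the sites read by the members' own proteins. CGATA, the BEAF-32 core, was present at 3 of the 8 promoter summits (Chro, Dref and mod(mdg4)), where 25.0% of all IDR promoter summits and 23.6% of protein-coding starts had it. Its nearest base was 6 bp from the summit at Chro and 21 bp at Dref. TATCGATA, the element read by DREF, holds CGATA on each strand and so overlaps with it. It was present at the mod(mdg4) start, 10 bp from the summit and 47 bp from the start, and at 5.29% of all IDR promoter summits and 4.48% of protein-coding starts. The flanking summit of CTCF at Sec63 and pst also held it. The promoter summit of Dref itself had CGATA but not TATCGATA in this window.

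TGCATA, a core of the Su(Hw) site, was present at 1 of the 8, the summit shared by su(Hw) and Polr2I, 27 bp from its listed position, which is a window centre. It was present at 7.02% of IDR promoter summits and 3.41% of protein-coding starts. CAGCTG, an E-box, was present at CTCF alone of the 8 (5.23% of IDR promoter summits, 8.77% of starts). None of the 8 held AGGTGGCGC, part of the CTCF site (0.376% of IDR promoter summits, 0.0674% of starts), GGTCACAC, motif 1 (3.37% and 4.67%), or GAGAG, read by the GAGA factor (9.23% and 12.7%). A match is a run of letters and not a measured site, and the absence of one says only that these letters were not in the window.

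A further list of 26 genes for other insulator and architectural proteins was examined beside the 9. Of these, 18 (69.2%) had an IDR promoter summit, against 35.6% of all protein-coding genes. The strongest was at M1BP, which encodes the factor that reads motif 1 (signal 1901, rank 517, replicate ranks 588, 553 and 465). It was followed by shep, an RNA-binding protein that modulates the gypsy insulator (signal 1712, replicate ranks 660, 608 and 681), Nup98-96, a nucleoporin gene (1304, ranks 509, 1490 and 1158), and Cap-H2, a condensin II subunit gene whose summit was nearer to the start of MED7 (1146, ranks 913, 1906 and 1020). All 4 lay between Cp190 and Dref in signal. The 8 without an IDR promoter summit were ZIPIC, dwg, Elba1, Elba2, Elba3, vtd, Nipped-B and Topors, which include the Elba boundary complex, the cohesin subunit vtd and the cohesin loader Nipped-B, while the cohesin genes SMC1 (signal 555.7) and SMC3 (285.9) had one. Among the strongest 5000 IDR peaks the count was 11 of 26, where 21.1% of all protein-coding genes had a summit.

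The genes whose promoter peaks had the replicate ranks most like those of the 3 strongest members were found by the distance between log10 ranks over the 3 replicates, among 4513 genes. For Chro they were CG14100 (ranks 18, 21 and 23, distance 0.141) and Ugalt, a UDP-galactose transporter gene (19, 15 and 21, distance 0.175). For Cp190 they were Ldh, the lactate dehydrogenase gene (161, 95 and 126, distance 0.0842), and CBP (135, 89 and 100, distance 0.0999). For Dref they were Irp-1A, an iron regulatory protein gene (2170, 1192 and 1295, distance 0.047), and CG8420 (1941, 1314 and 1121, distance 0.0579). Likeness here means only peaks of alike strength in the same 3 libraries.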

How the data were processed

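Peak lists of 3 biological replicates of 1 group were used, with the pooled list and the IDR list. Per the labels, reads were placed on build dm6. Per the text deposited with the lists, each replicate was called against 1 control file, the pooled list was made from the replicates together, and the IDR list was derived from these lists. No aligner, peak caller or IDR threshold is named in the sources used here. The deposited signal value is the enrichment that the authors' caller gave a peak, and its scaling by depth is not recorded. The deposited −log10 q value was 4.34 at every IDR peak, so peaks were ranked by signal. In the lists of single replicates it fell as low as 0.0776, so their weakest peaks had little support. The deposited summit offset was added to the peak start.

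Genes and starts were those of Ensembl release 115, and sequence that of RefSeq for the same assembly. A summit within 500 bp of any start counted for every such gene, and a replicate peak was matched to a listed summit by the nearest summit within 250 bp, so 1 replicate peak can serve neighbouring summits. The 9 genes, the 26 further genes, the 7 sequences and the rule for genes named (all members, the 4 strongest further genes, the 2 genes most alike in rank to each of 3 members, and genes at the summits described) were chosen with earlier results of these data known. The alternatives were other windows, other lists, other ways to assign a summit, a filter by 2 of the 3 replicates and, for ranks, leaving out each replicate. The filter kept IDR peaks whose summit lay in the 9789 strongest peaks of both replicates, and peaks were not called again. No statistical test was made. The 23 peaks of replicate 3 off the 7 assembled chromosomes were not used. The counting steps were tested on simulated data. The software was pandas 2.3.3, NumPy 2.4.6 and matplotlib 3.10.9 under Python 3.11.15.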

Additional observations from a re-analysis of the deposited data

How the results depend on the processing

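The share of all protein-coding genes with a promoter summit was 35.6% in the IDR list. Over the alternatives it ran from 21.1% (strongest 5000 IDR peaks) to 51.8% (whole list of replicate 3). The number of members with an IDR promoter summit was 7 and stayed between 6 and 9 over all alternatives. It was 6 with a window of 250 bp (30.1% of all protein-coding genes) or with the nearest start only (27.1%), both without su(Hw). Among the strongest 5000 IDR peaks it was 6 (21.1%), without mod(mdg4). With the filter by 2 replicates, which could not raise the count, it was 7 each time (27.0% to 28.8%). It was 9, with Ibf1 and Ibf2, in the pooled list (49.2%) and among the 9789 strongest peaks of replicates 1 (35.4%) and 3 (36.9%). The whole lists of replicates 1, 2 and 3 also gave 9 (49.2%, 50.7% and 51.8%). The number with a summit in the gene body was 4 (17.5% of all protein-coding genes), and 3 to 4 with that filter (13.7% to 14.6%). Of the 26 further genes 18 had a promoter summit, against 35.6% of all protein-coding genes. Among the strongest 5000 IDR peaks (fewer peaks by construction) 11 had one, against 21.1%. With the filter by 2 replicates, which could not raise the count, 14 to 18 had one, against 27.0% to 28.8%. The median rank of Chro was 20, and the mean rank of each pair of replicates ran from 19 to 25. For Cp190 these were 112 and 109.5 to 129, for Dref 1275 and 1232.5 to 1726.5, and for the Ibf pair 8465 and 7610 to 12558. Matching within 100 bp left the medians of the other 7 genes as they were and gave no value for Ibf1 and Ibf2. The replicates form 1 group, so there was no second condition to pair them with. Ranks of different genes come from the same 3 lists and are matched by replicate. Depth is unknown, the lists of replicates end at a fixed length, and a list cannot show that the protein is absent from a gene.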
